A study of Mus musculus with 6 samples.

Results

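The genes described here encode the aminoacyl-tRNA synthetases, 20 of them for enzymes of the cytosol and 16 for enzymes of the mitochondrion. They were taken by symbol from a fixed list and all 36 were found among the 46983 genes of the count table, with Mars1 listed there under its older symbol Mars. Polyadenylated RNA came from wild-type mouse pancreatic islets, small endocrine organs rich in insulin-secreting beta cells, after 24 h of culture. The groups were islets at high, or stimulating, glucose (3 libraries) and islets at low, or non-stimulating, glucose (3 libraries). No strain, glucose concentration or count of animals per library is stated in the labels.

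Each synthetase joins an amino acid to its matching tRNA, the step that fixes the genetic code before the ribosome acts. Mammals use separate nuclear genes for most of the cytosolic and the mitochondrial enzymes, and the mitochondrial enzymes serve the few proteins encoded by mitochondrial DNA. Gars and Kars are exceptions, since each gives both the cytosolic and the mitochondrial enzyme, and a number of cytosolic synthetases are known targets of ATF4, a transcription factor made when eIF2 is phosphorylated in the integrated stress response. Beta cells make large amounts of proinsulin and acinar cells large amounts of digestive enzymes, so both have a high demand for charged tRNA.

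Library totals were 14150726 to 15846235 counts at high glucose and 10596020 to 12730985 at low glucose. The libraries also differed in makeup. The 30 acinar markers took 12.7% to 25.0% of the counts at high and 49.0% to 64.8% at low glucose, and 28 of 30 fell. The 20 hormone and granule genes took 4.10% to 10.9% at high and 2.34% to 4.96% at low glucose, and 4 of them rose and 3 fell, with a median log2 fold change of -0.04. The defining transcripts Ins1, Ins2, Gcg and Sst were abundant in every library. Of 10 intestinal markers 10 fell (0.00348% to 0.0276% of the counts at high and 0.0756% to 0.44% at low glucose). Of 8 duct markers 3 rose and 1 fell (0.366% to 0.582% at high and 0.0217% to 0.0433% at low glucose). The median log2 fold change of the duct markers was only 0.09, so the larger share was not a rise across the list. In the smaller lists 2 of 6 stellate and fibroblast markers and 2 of 5 endothelial markers fell and none rose, and 1 of 7 macrophage and leukocyte markers rose and none fell. Their median log2 fold changes were -1.65, -0.63 and -1.05. No marker in these lists was at 0 throughout. In bulk libraries fewer cells of a type and less RNA per cell cannot be told apart, and the part of these shares in the changes below was not tested.

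At high glucose 2 of the 20 cytosolic synthetase transcripts rose, Rars and Sars, and none fell, while 1 of the 16 mitochondrial ones, Lars2, fell and none rose. The test was edgeR's quasi-likelihood F-test over 13996 genes, with an adjusted p under 0.05 as the threshold. The same test called 27.5% of all tested genes, 13.3% higher and 14.2% lower, so the synthetases were not called more often than other genes. At an unadjusted p under 0.05 there were 7 cytosolic and 4 mitochondrial members, against 5810 of all 13996 genes. The median log2 fold change (high over low glucose) was 0.34 for the cytosolic members, -0.17 for the mitochondrial members and 0.01 for all tested genes. All 36 members passed the filter on low counts.

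Calls depended on the use of the replicate number as a block and on single libraries. With the replicate number as a block, 6 cytosolic members were higher (Rars, Sars, Aars, Cars, Gars and Lars) and 1 was lower (Wars), and among mitochondrial members Yars2 was higher and Lars2 lower. That fit called 15.7% of all genes higher and 17.7% lower. Without low glucose replicate 2 no cytosolic member passed, beside 4.86% of all genes higher and 7.11% lower. Rars was the only cytosolic member higher without high glucose replicate 2 (7.66% of all genes higher, 10.2% lower), high glucose replicate 3 (5.78% and 8.19%) or low glucose replicate 1 (7.71% and 11.1%). In the last case Wars and Cars2 were lower. Without high glucose replicate 1 the same 6 cytosolic members as with the block were higher, with Aars2 and Yars2 (19.8% of all genes higher, 20.5% lower). Without low glucose replicate 3 Farsb took the place of Lars among 6 (8.76% and 10.9%). Lars2 was lower in each of these fits.

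Other settings were set beside their own background. Without the filter on low counts 5 cytosolic members and Yars2 were higher and Lars2 lower, beside 9.8% of all genes higher and 9.23% lower. The calls were Rars, Sars and Lars2 as above with limma-voom (10.7% higher, 14% lower), with DESeq2 size factors (13.1% and 14.3%), without the 20 most abundant genes (13.4% and 14.6%) and without the acinar markers (13.3% and 14.5%).

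Rars encodes arginyl-tRNA synthetase, a member of the multisynthetase complex, and lies on chromosome 11 (35808381 to 35834506, GRCm38, minus strand). It had 122, 228 and 190.5 CPM in high glucose replicates 1 to 3, against 47.9, 59.2 and 85.4 CPM in low glucose replicates 1 to 3. CPM here are counts divided by the TMM-scaled library size, times 1000000. Every high glucose library lay above every low glucose library. The log2 fold change was 1.49 ± 0.30 (SE), with an edgeR adjusted p of 0.0117, and it was 1.45 without low glucose replicate 2, where the adjusted p by edgeR was 0.058.

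Sars encodes seryl-tRNA synthetase, which also charges the tRNA that carries selenocysteine, and lies on chromosome 3 (108424865 to 108445209, minus strand). It had 243, 347 and 305 CPM in the high glucose libraries, against 126, 160.1 and 199 CPM in the low glucose libraries, again without overlap. Its log2 fold change was 0.89 ± 0.24 with an edgeR adjusted p of 0.0307. The call was lost without high glucose replicate 2 (0.77) or 3 (0.88), without low glucose replicate 1 (0.73) or 2 (0.89), and with hormone and granule gene scaling (1.22).

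Lars2 encodes mitochondrial leucyl-tRNA synthetase and lies on chromosome 9 (123366927 to 123462666, plus strand). It had 7.89, 8.74 and 8.92 CPM at high glucose, against 15.99, 19.0 and 18.7 CPM at low glucose. The groups lay far apart relative to their spread, with means of 8.51 ± 0.55 CPM at high and 17.9 ± 1.65 CPM at low glucose (SD, n = 3 each). The log2 fold change was -1.07 ± 0.17 with an edgeR adjusted p of 0.00469, and it passed with each of the 6 libraries left out in turn. It did not pass when scaled by library totals (0.10) or by the hormone and granule genes (-0.77). Gm42418, a gene that overlaps the ribosomal RNA repeat and was chosen after the values of Lars2 had been seen, had 6.23, 8.69 and 10.98 CPM at high glucose, against 33.98, 46.9 and 47.6 CPM at low glucose. Reads from ribosomal RNA as a part of the Lars2 counts were not tested.

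**Figure D1:**
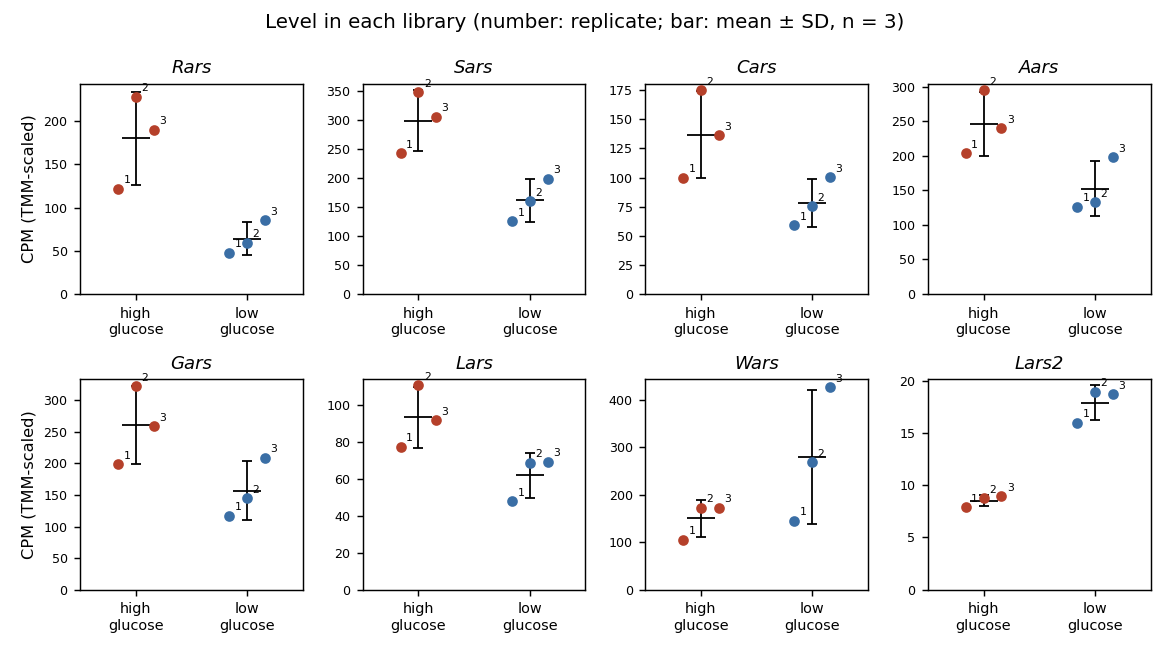
Level of 8 synthetase transcripts in each library, in CPM scaled by TMM (vertical axes from 0), with high glucose left of low glucose. Points are libraries numbered by replicate, and bars give the mean and SD of 3 libraries. The Rars, Sars and Lars2 libraries of the groups do not overlap, while Wars spans 146 to 427 CPM at low glucose.

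Cars, Aars, Gars and Lars, the cytosolic cysteinyl-, alanyl-, glycyl- and leucyl-tRNA synthetase genes, had the next smallest p-values among the cytosolic members without passing the main test. Aars had 204, 295 and 239 CPM at high glucose, against 126, 132 and 198 CPM at low glucose, a log2 fold change of 0.69 ± 0.24 with an edgeR adjusted p of 0.0712. Lars had 77.6, 111 and 91.9 CPM at high glucose, against 48.0, 68.8 and 69.5 CPM at low glucose. Neither gene overlapped between the groups. Cars had 99.9, 175 and 136 CPM at high glucose, against 58.9, 75.3 and 100.2 CPM at low glucose, and its high glucose replicate 1 lay just below low glucose replicate 3. Gars had 199, 322 and 259 CPM at high glucose, against 117, 145 and 209 CPM at low glucose, and overlapped in the same way. With the replicate block the adjusted p by edgeR was 0.02 for Cars, 0.0253 for Lars, 0.0342 for Gars and 0.0417 for Aars. DESeq2 also called these 4 genes higher. It called 6 cytosolic members higher in all, and 1 mitochondrial member lower, beside 15.6% of all genes higher and 16.8% lower.

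Wars, which encodes tryptophanyl-tRNA synthetase, had the lowest log2 fold change of the cytosolic members. In human cells it is known as an interferon-gamma induced gene, and the enzyme is known to be abundant in cow pancreas. It had 106, 173 and 173 CPM at high glucose, against 146, 268 and 427 CPM at low glucose. High glucose replicates 2 and 3 lay above low glucose replicate 1, so the groups overlapped. The log2 fold change was -0.90 ± 0.40 with an edgeR adjusted p of 0.131. With the replicate block it was -0.80 and passed with an edgeR adjusted p of 0.0295, whereas with library totals it was 0.36 and did not pass. Per kilobase of mRNA, Wars had the highest level of the cytosolic members at low glucose, at 154 CPM per kb, and 82.6 CPM per kb at high glucose.

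The other 13 cytosolic members had log2 fold changes between -0.32 (Mars1) and 0.55 (Farsb), and none passed. Mars1, the methionyl-tRNA synthetase gene, had 67.7, 81.1 and 72.4 CPM at high glucose, against 63.4, 98.6 and 114 CPM at low glucose. Its exons overlap those of Ddit3, which rose, so reads in the shared part are uncertain. Eprs, which holds the glutamyl and the prolyl enzyme in a single protein, had 161, 186 and 157 CPM at high glucose, against 109, 123 and 166 CPM at low glucose. Nars, the asparaginyl enzyme gene, had 215, 401 and 292 CPM at high glucose, against 172, 215 and 335 CPM at low glucose. These 3 genes overlapped between the groups.

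Tars, the threonyl enzyme gene, had 109, 149.9 and 121 CPM at high glucose, against 84.6, 98.9 and 150.5 CPM at low glucose. Vars, the valyl enzyme gene, had 62.3, 109 and 109 CPM at high glucose, against 48.0, 60.7 and 105 CPM at low glucose. Yars, the tyrosyl enzyme gene, had 62.4, 75.0 and 66.8 CPM at high glucose, against 50.5, 69.2 and 92.0 CPM at low glucose. In all 3 genes low glucose replicate 3 reached into or above the high glucose range. Farsa and Farsb encode the subunits of the phenylalanyl enzyme, which works as a tetramer. Farsa had 25.3, 32.8 and 32.4 CPM at high glucose, against 19.5, 26.3 and 28.3 CPM at low glucose, and Farsb had 34.7, 42.8 and 38.3 CPM at high glucose, against 20.4, 23.6 and 35.4 CPM at low glucose. The subunit genes thus had log2 fold changes of 0.29 ± 0.19 and 0.55 ± 0.22, and neither passed. Iars, Qars, Dars, Hars and Kars, for isoleucine, glutamine, aspartate, histidine and lysine, lay between 0.04 (Kars) and 0.43 (Iars).

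**Figure D2:**
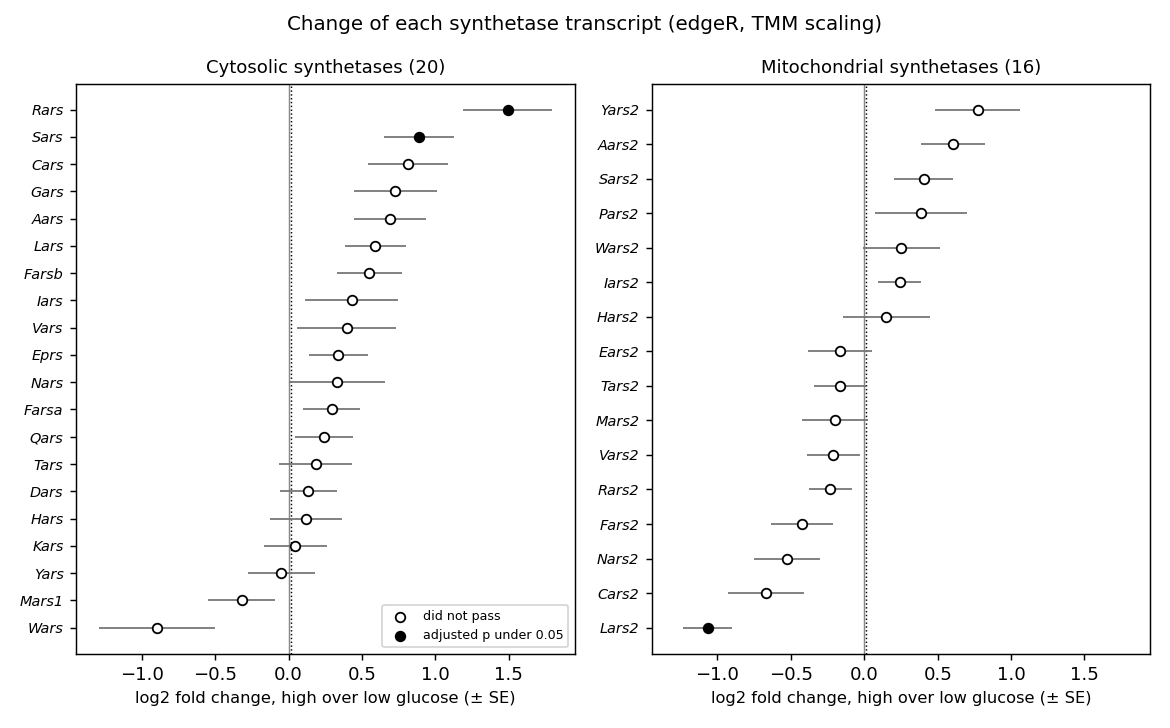
Log2 fold change, high over low glucose, of the 20 cytosolic (left) and 16 mitochondrial (right) synthetase transcripts by edgeR with TMM scaling. Bars are SEs, filled points passed the test, the grey line marks 0 and the dotted line the median of all tested genes (0.01). Values run from 1.49 for Rars to -0.90 for Wars on the left and from 0.77 for Yars2 to -1.07 for Lars2 on the right.

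Among the mitochondrial members 7 log2 fold changes were above 0 and 9 below, against 17 above and 3 below among the cytosolic members. Over all 13996 tested genes 7112 were above 0 and 6884 below. The cytosolic members varied together between libraries (below), so their signs are not separate observations. Of the 20 cytosolic members, 15 were above 0 without low glucose replicate 1 (median 0.16) and 18 without low glucose replicate 3 (median 0.60). Yars2, the mitochondrial tyrosyl enzyme gene, had 11.002, 17.6 and 15.5 CPM at high glucose, against 5.86, 9.14 and 11.007 CPM at low glucose, so that the lowest high glucose library and the highest low glucose library were level. Its log2 fold change of 0.77 ± 0.29 had an edgeR adjusted p of 0.0853, and 0.0232 with the replicate block. Aars2, the alanyl enzyme gene, had 9.20, 11.5 and 11.9 CPM at high glucose, against 6.19, 8.48 and 6.92 CPM at low glucose. Its groups did not overlap, yet the adjusted p by edgeR was 0.0741. Sars2, the seryl enzyme gene, also lay higher without overlap, at 7.43, 7.59 and 7.31 CPM at high glucose, against 5.11, 5.65 and 6.13 CPM at low glucose. Its log2 fold change of 0.41 ± 0.20 did not pass.

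On the other side, Cars2, the mitochondrial cysteinyl enzyme gene, had 6.26, 7.49 and 8.06 CPM at high glucose, against 8.03, 14.5 and 12.4 CPM at low glucose. Nars2, the asparaginyl enzyme gene, had 6.23, 6.24 and 4.94 CPM at high glucose, against 7.20, 9.97 and 8.02 CPM at low glucose. Rars2, the arginyl enzyme gene, had 19.2, 19.9 and 18.7 CPM at high glucose, against 20.1, 23.8 and 24.1 CPM at low glucose. Nars2 and Rars2 did not overlap between the groups, and Cars2 overlapped narrowly. Fars2, the mitochondrial phenylalanyl enzyme gene, had 8.31, 11.98 and 9.72 CPM at high glucose, against 11.5, 14.1 and 14.8 CPM at low glucose. The log2 fold changes were -0.67 ± 0.26 for Cars2, -0.53 ± 0.23 for Nars2, -0.42 ± 0.21 for Fars2 and -0.23 ± 0.15 for Rars2, and none of these passed.

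Vars2 had 11.4, 14.5 and 15.1 CPM at high glucose, against 14.5, 16.5 and 16.5 CPM at low glucose. Tars2 had 15.0, 19.1 and 19.5 CPM at high glucose, against 18.7, 22.4 and 19.0 CPM at low glucose. Ears2, the mitochondrial glutamyl enzyme gene, had 6.58, 7.64 and 7.91 CPM at high glucose, against 8.20, 6.82 and 9.75 CPM at low glucose. All 3 overlapped, with log2 fold changes of -0.21, -0.17 and -0.16 that did not pass. Wars2 had 4.32, 4.44 and 4.48 CPM at high glucose, against 4.52, 3.49 and 2.99 CPM at low glucose, and overlapped too. Iars2, Hars2, Pars2 and Mars2 had log2 fold changes of 0.24, 0.15, 0.38 and -0.20, and none passed. Hars2 and Hars overlap in their exons, so reads in the shared part are uncertain. In all, 10 of the 36 members overlap exons of another protein-coding gene.

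Counting members whose libraries did not overlap, 4 cytosolic members were higher and none lower, and 2 mitochondrial members were higher and 3 lower. Over all tested genes 23.5% were higher and 22.4% lower without overlap. The member counts were near or below that background.

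The cytosolic members varied together between libraries of a group. At low glucose, replicate 3 was the highest and replicate 1 the lowest for 20 of 20 cytosolic members. At high glucose, replicate 2 was the highest for 19 of 20 and replicate 1 the lowest for 18 of 20. Replicate 1 also had the lowest share of acinar counts and the highest share of hormone and granule counts in each group. Its acinar share was 12.7% against 25.0% and 24.2% in replicates 2 and 3 at high glucose, and 49.0% against 64.8% and 62.6% at low glucose. Its hormone and granule share was 10.9% against 4.10% and 4.73% at high glucose, and 4.96% against 2.34% and 2.52% at low glucose. The part of this makeup in the order of the libraries was not tested. Replicate 1 was also the lowest for most mitochondrial members, 12 of 16 at high and 13 of 16 at low glucose. Among these members low glucose replicate 3 was the highest for 8 of 16 and high glucose replicate 3 for 10 of 16. Such an order was not counted over all genes. The mean log2 CPM of the cytosolic members was 6.47, 7.005 and 6.81 in high glucose replicates 1 to 3 and 6.02, 6.36 and 6.80 in low glucose replicates 1 to 3. That of the mitochondrial members was 3.13, 3.35 and 3.34 at high glucose and 3.19, 3.42 and 3.35 at low glucose. Low glucose replicate 3 therefore stood within the high glucose range for the cytosolic members, and the mitochondrial means of the groups overlapped.

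The difference between both means within a library does not depend on how libraries are scaled. Cytosolic minus mitochondrial members, it was 3.35, 3.66 and 3.47 at high glucose, against 2.83, 2.95 and 3.45 at low glucose. The group means were 3.49 ± 0.16 at high and 3.07 ± 0.33 at low glucose (SD, n = 3 each), a difference of 0.41 on the log2 scale against a pooled SD of 0.26. The groups overlapped through low glucose replicate 3, and the difference was 0.60 without that library and 0.29 without low glucose replicate 1. As summed counts, the cytosolic members had 12.6, 15.6 and 13.8 times the counts of the mitochondrial members in the high glucose libraries, against 8.36, 9.24 and 13.7 times in the low glucose libraries.

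Within-library ratios were also taken between the enzymes for the same amino acid, in 17 cytosolic and mitochondrial pairs. The ratio of Rars to Rars2 counts was 6.37, 11.5 and 10.2 at high glucose, against 2.38, 2.49 and 3.55 at low glucose. Lars to Lars2 gave 9.84, 12.7 and 10.3 at high glucose, against 3.01, 3.63 and 3.71 at low glucose, and Cars to Cars2 gave 15.95, 23.3 and 16.9 at high glucose, against 7.33, 5.21 and 8.06 at low glucose. In these 3 pairs every high glucose library lay above every low glucose library, and the mean log2 ratio was higher by 1.71, 1.66 and 1.45 at high glucose. For phenylalanine, the log2 ratio to Fars2 was higher by 1.02 for Farsb and by 0.73 for Farsa, again without overlap. The ratios of Eprs to Ears2 and of Sars to Sars2 did not overlap either, with mean log2 ratios higher by 0.51 and 0.49. The Sars to Sars2 ratio nearly met between the groups, at 32.7 in high glucose replicate 1 and 32.4 in low glucose replicate 3. Nars to Nars2, Vars to Vars2 and Tars to Tars2 were higher by 0.87, 0.65 and 0.39 in the mean, and their libraries overlapped. In all, the mean log2 ratio was higher at high glucose in 12 of the 17 pairs. Without overlap 7 pairs were higher and 1 was lower. Eprs and Fars2 each stand in more than 1 pair, so the pairs are not all separate. Ratios of other gene pairs were not taken, and these counts therefore have no background.

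The tyrosine and tryptophan pairs ran the other way. Yars to Yars2 gave 5.67, 4.27 and 4.32 at high glucose, against 8.61, 7.56 and 8.36 at low glucose, without overlap, and the mean log2 ratio differed by -0.79. Wars to Wars2 gave 24.5, 38.9 and 38.6 at high glucose, against 32.2, 76.9 and 143 at low glucose, with overlap. For Aars to Aars2, Iars to Iars2, Hars to Hars2, Eprs to Pars2 and Mars1 to Mars2 the mean log2 ratios differed by 0.11, 0.15, -0.04, -0.02 and -0.08, with overlap. With 3 libraries against 3 an exact two-sided permutation test of a single ratio cannot give a p below 0.1. No test of a ratio was run, and these values are descriptions.

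**Figure D3:**
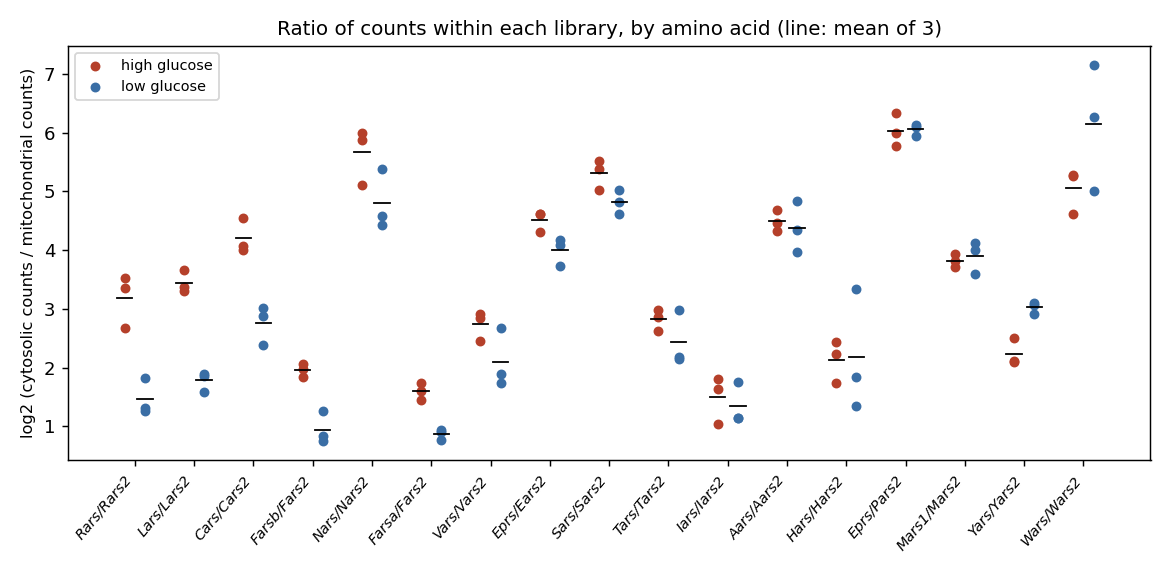
Log2 ratio of cytosolic to mitochondrial counts within each library for 17 pairs that charge the same amino acid, with high glucose left of low glucose in each pair. Points are libraries and lines the mean of 3. Pairs are ordered by the difference of their log2 fold changes, from Rars/Rars2 (log2 ratio higher by 1.71 at high glucose) to Wars/Wars2 (lower, by -1.09).

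Levels between genes were compared per kilobase of the longest principal transcript. The median cytosolic member had 30.0 CPM per kb at high and 26.4 CPM per kb at low glucose, and the median mitochondrial member had 3.71 at high and 3.80 at low glucose. The cytosolic median was thus 8.08 times the mitochondrial one at high and 6.93 times at low glucose. At high glucose the cytosolic levels ran from 16.5 CPM per kb (Farsa) to 110 CPM per kb (Nars), with Gars next at 109 CPM per kb, and Nars and Gars did not differ beyond their spread. The mitochondrial levels at high glucose ran from 0.462 CPM per kb (Mars2, whose annotated mRNA is long) to 10.3 CPM per kb (Rars2).

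Groups that the selection did not use were also compared. Of the 8 members of the multisynthetase complex, which holds part of the cytosolic enzymes together, 1 rose (Rars) and 7 did not pass, with a median log2 fold change of 0.29. Of the 12 other cytosolic members 1 rose (Sars), with a median of 0.36. Over all tested genes 13.3% were higher, with a median of 0.01. The enzymes fall into class I and class II by the fold of the catalytic domain. Leaving out Eprs, which has both, 6 of 9 cytosolic class I members and 10 of 10 class II members had a log2 fold change above 0, with 1 call in each. Among the mitochondrial members these counts were 3 of 9 for class I and 4 of 7 for class II. Of all 13996 tested genes 7112 were above 0.

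The scaffold of the multisynthetase complex is made by Aimp1, Aimp2 and Eef1e1. None passed the main test. Eef1e1 had 11.002, 11.8 and 11.6 CPM at high glucose, against 4.18, 4.49 and 9.43 CPM at low glucose, without overlap, and its log2 fold change of 0.94 ± 0.33 had an edgeR adjusted p of 0.0669. With the replicate block Eef1e1 and Aimp2 were higher, with edgeR adjusted p-values of 0.0324 and 0.0407. Of 7 genes for cytosolic elongation factors, which bring charged tRNA to the ribosome, 0 passed by edgeR, 0 had an unadjusted p under 0.05, 0 passed by DESeq2, and the median was -0.29.

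Of 17 genes for mitochondrial translation factors and tRNA modification, 1 rose and none fell, beside 13.3% of all genes higher and 14.2% lower. The 1 that rose was Tsfm, an elongation factor gene, by 0.74 ± 0.22. It had 9.66, 13.8 and 12.6 CPM at high glucose, against 6.36, 7.48 and 7.86 CPM at low glucose. When scaled to the hormone and granule genes Tsfm did not pass (edgeR adjusted p of 0.121). Gatb, Gatc and Qrsl1 encode the amidotransferase that makes mitochondrial glutaminyl-tRNA, for which there is no separate synthetase, and had log2 fold changes of -0.58, -0.30 and 0.22 without passing.

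In the eIF2 system, which couples uncharged tRNA and other stresses to translation, 3 of 13 genes rose and none fell. The shares over all tested genes were 13.3% higher and 14.2% lower. The kinase gene Eif2ak2, whose product PKR senses double-stranded RNA, rose by 1.52 ± 0.21 with 31.8, 45.0 and 51.7 CPM at high glucose, against 14.2, 14.8 and 15.9 CPM at low glucose. Eif2b3, for a subunit of the exchange factor, rose by 0.93 ± 0.24 and Eif2s1, for the alpha subunit of eIF2, by 0.85 ± 0.25. When scaled to the hormone and granule genes neither of these passed, with edgeR adjusted p-values of 0.083 for Eif2b3 and 0.0932 for Eif2s1. Eif2b1, for another subunit of the exchange factor, had a log2 fold change of -0.70 ± 0.25 and did not pass the main test. It was lower with the replicate block (-0.67, edgeR adjusted p of 0.0391) and by DESeq2 (adjusted p of 0.0475). Eif2ak4, whose product GCN2 senses uncharged tRNA, had 14.5, 19.4 and 18.6 CPM at high glucose, against 16.2, 17.3 and 17.3 CPM at low glucose, and did not pass (0.05 ± 0.17).

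Of 33 integrated stress response genes other than synthetases, 13 rose and 2 fell, with a median of 0.69. Over all tested genes 13.3% were higher and 14.2% lower, with a median of 0.01. With the replicate block 18 of the 33 were higher and 3 lower, beside 15.7% of all genes higher and 17.7% lower. When scaled to the hormone and granule genes 10 of the 33 were higher and 1 lower, beside 7.55% and 7.5% of all genes. The genes gained with the block were Atf4, Eif4ebp1 (edgeR adjusted p of 0.00386), Ddit4 (0.0187), Shmt2 (0.0255) and Slc3a2 (0.0278) upward and Phgdh (0.0244) downward. The smallest p-values belonged to Slc7a11, a cystine transporter gene (4.42 ± 0.28), Gdf15, a secreted stress factor gene (6.24 ± 0.59), Cebpb, a transcription factor gene (2.15 ± 0.21), and Ppp1r15a, for the GADD34 subunit of the eIF2 phosphatase (1.63 ± 0.20), all of which rose. Trib3, a pseudokinase gene, rose by 4.11 ± 0.54 and Ddit3, which encodes CHOP, by 1.76 ± 0.30. Atf4 itself had 307, 456 and 458 CPM at high glucose, against 167, 236 and 276 CPM at low glucose. Its groups did not overlap, and its log2 fold change of 0.85 ± 0.27 had an edgeR adjusted p of 0.051, or 0.0102 with the replicate block. The 9 amino acid synthesis genes of that list were split off after their values had been seen. They had 1 call upward (Psph), 1 downward (Pycr1) and a median of -0.39. Of the other 24, 12 rose and 1 fell, Herpud1 (-1.47 ± 0.22, edgeR adjusted p of 0.00354). Neither Psph nor Herpud1 passed when scaled to the hormone and granule genes, with edgeR adjusted p-values of 0.0688 and 0.0883. With the replicate block 2 of the 9 were higher (Psph and Shmt2) and 2 lower (Pycr1 and Phgdh), and of the other 24 there were 16 higher and 1 lower. Asns, the asparagine synthetase gene, had 213, 369 and 269 CPM at high glucose, against 244, 454 and 560.0 CPM at low glucose, and did not pass (-0.56 ± 0.35). Chac1, a glutathione-degrading enzyme gene, did not pass either (0.44 ± 0.39).

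ATF4 is known to bind the C/EBP-ATF response element, so RefSeq promoters (GRCm38.p6, 250 bases before to 50 bases after each annotated start) were searched on both strands for its core, TGATGNAA. A promoter was listed for 27 of the 36 members. The core was present in 5 of 13 cytosolic promoters (38.5%) and 0 of 14 mitochondrial ones, against 1219 of all 27025 genes (4.51%). The 30-base windows below show 1 match in each of these 5 genes in the direction of transcription, with the match in capitals. The capitals read TTGCATCA or TTTCATCA where the core lies on the opposite strand.
Aars, chr8:111033840-111033869, plus strand: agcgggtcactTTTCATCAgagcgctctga
Gars, chr6:55037960-55037989, plus strand: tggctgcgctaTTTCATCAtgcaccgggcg
Iars, chr13:49682126-49682155, plus strand: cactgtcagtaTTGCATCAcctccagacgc
Tars, chr15:11399655-11399684, minus strand: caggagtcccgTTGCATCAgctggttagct
Yars, chr4:129189895-129189924, plus strand: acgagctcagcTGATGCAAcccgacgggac

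These matches lay at -30 in Gars, -15 in Tars, 3 in Yars, 7 in Iars and 9 in Aars, where 0 is the first transcribed base and the position is that of the leftmost base of the match. Aars held a further match at -112, whose window is not shown. None of the 5 genes with a match passed the main test. Their log2 fold changes were 0.69 for Aars, 0.73 for Gars, 0.43 for Iars, 0.19 for Tars and -0.05 for Yars. The promoter of Sars, which rose, held no match in this window, and neither did that of Lars2, which fell. Rars was not among the listed promoters.

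How the libraries are scaled set the sign of many of these changes. With library totals the median of all tested genes moved to 1.16, and 19 of 20 cytosolic and 12 of 16 mitochondrial members were called higher, beside 59.7% of all genes higher and 4.49% lower. The medians were then 1.53 for the cytosolic and 0.98 for the mitochondrial members, above and below the shift of all genes as with TMM. When libraries were scaled to their hormone and granule genes, the median of all genes was 0.30, those of the lists were 0.67 and 0.16, and Rars was the only member called, beside 7.55% of all genes higher and 7.5% lower. Wars lay below the median of all genes under each of these scalings.

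**Figure D4:**
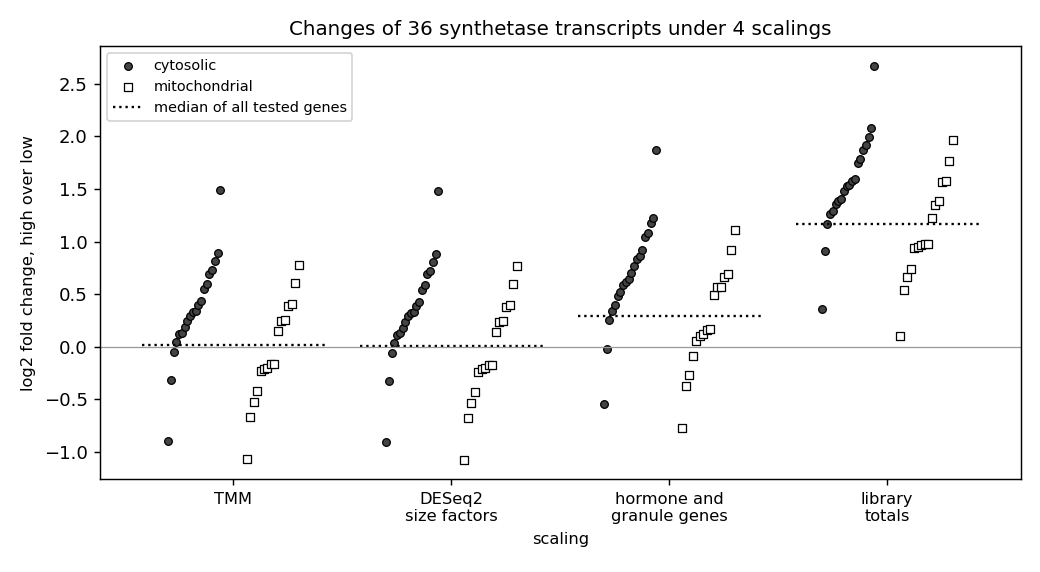
Log2 fold change, high over low glucose, of the 20 cytosolic (filled circles) and 16 mitochondrial (open squares) members under 4 scalings, each list sorted by value. Dotted lines mark the median of all tested genes, which is 0.01 with TMM, 0.30 with the hormone and granule genes and 1.16 with library totals; the cytosolic points lie mostly above it and the mitochondrial points on both sides.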

How the data were processed

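The authors' deposited table holds raw read counts by Ensembl gene ID for 6 libraries and was used as it stood. The submitters' processing notes name GRCm38, STAR 2.7.3a and HTSeq 0.6.1p1. The annotation release, strand setting and read filters are not given in the sources used here, so reads of overlapping genes cannot be told apart. Names and coordinates came from GENCODE M21 on GRCm38; 495 IDs had no name. High and low glucose were compared over all genes with edgeR 4.0.16 (R 4.3.3), TMM scaling and filterByExpr (minimum count 10, minimum total 15), with Benjamini-Hochberg adjusted p under 0.05. SEs were derived from the F statistic (absolute log2 fold change over root F). Log2 levels used a prior count of 2. The members and lists were chosen with earlier results of these data known. All members are named, with values in every library for those that passed and for amino acid pairs of opposite sign; from companion lists up to 4 of the smallest p and a fixed few were named. Gatb, Gatc, Qrsl1, Eef1e1, Aimp2, Psph, Pycr1, Eif2b1, Eif4ebp1, Ddit4, Shmt2, Slc3a2, Phgdh and Herpud1 fall outside that rule. They were chosen after their values were seen. Library values of the members Aars, Aars2, Gars, Mars1 and Sars2 were also printed outside that rule. Promoter windows were planned for members that passed, and are shown instead for the 5 genes with a match. Library totals give the depth, and precision is limited by 3 libraries a group.

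No label states whether replicate libraries are separate animals or cultures, and the p-values therefore reflect the spread among these libraries alone, part of which may be technical. Libraries of a group differed by more than sampling noise (lowest chi-square over its degrees of freedom 16.2). Replicate numbers are shared between groups. Deviations from the group means correlated at 0.40, 0.26 and 0.25 for same-numbered libraries and at -0.31 to 0.07 for others. Deviations within a group cancel out by construction, so positive values for same numbers lower the others. Replicate 1 also had the lowest acinar and the highest hormone and granule share in both groups. Pairing and shared makeup therefore cannot be told apart, and the replicate block is an alternative only. Its values are given where they change the call of a synthetase or companion gene. Alternatives were other scalings, no filter, DESeq2 1.42.0, limma-voom (limma 3.58.1), the block and each library left out. Figures were drawn with matplotlib 3.10.9. 1 promoter window is not reported here.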

Additional observations from a re-analysis of the deposited data

How the results depend on the processing

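With library totals 8978 genes changed (8349 higher, 629 lower), 19 cytosolic members (all 19 higher) and 12 mitochondrial (12 higher, 0 lower), and signs turned for Mars1 (0.91), Wars (0.36), Yars (1.17), Cars2 (0.54), Ears2 (0.98), Fars2 (0.74), Lars2 (0.10), Mars2 (0.97), Nars2 (0.66), Rars2 (0.95), Tars2 (0.98) and Vars2 (0.94). With hormone and granule gene scaling 2107 genes changed (1057 higher, 1050 lower), 1 cytosolic member (higher) and 0 mitochondrial, and signs turned for Yars (0.25), Ears2 (0.17), Mars2 (0.10), Rars2 (0.055), Tars2 (0.16) and Vars2 (0.12). Both shift every gene by construction. Without the filter 5 cytosolic (higher) and 2 mitochondrial members (1 higher) changed and Yars was 0.049. DESeq2 called 6 cytosolic members (higher). With the replicate block, a pairing that no label states, 7 cytosolic (6 higher, 1 lower) and 2 mitochondrial members (1 higher) changed. With 1 library left out, 1743 to 5685 genes changed (708 to 2793 higher, 1035 to 2892 lower), 0 to 6 cytosolic (0 to 6 higher, 0 to 1 lower) and 1 to 3 mitochondrial members (0 to 2 higher, 1 to 2 lower). The lowest count of all genes came without low glucose replicate 2 and the highest without high glucose replicate 1. Left-out values ran from -0.24 to 0.20 for Yars, -0.091 to 0.43 for Hars, -0.15 to 0.25 for Kars and -0.086 to 0.33 for Hars2. Apart from the shifts by construction, the cause was not tested. The cytosolic minus mitochondrial difference (0.41) kept its sign under each alternative run (0.29 to 0.60). DESeq2 size factors, limma-voom and leaving out the acinar markers or the 20 most abundant genes changed no member's call or sign. Pars2, with 12 to 71 counts a library, had the widest SE of the mitochondrial members.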

Other observations

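Of 7 tested genes with a related tRNA function, 1 rose and 1 fell, beside 13.3% of all genes higher and 14.2% lower. Aarsd1 was below the filter. Tarsl2, which encodes a cytosolic enzyme close to threonyl-tRNA synthetase, had 9.30, 8.99 and 7.76 CPM at high glucose, against 16.9, 15.5 and 14.5 CPM at low glucose, and fell by 0.85 ± 0.17 on the log2 scale with an edgeR adjusted p of 0.012. With library totals its log2 fold change was 0.29. Tars itself did not pass (0.19 ± 0.25). Trnt1, whose product adds the CCA end to which the amino acid is joined, had 19.4, 28.6 and 23.8 CPM at high glucose, against 13.8, 13.8 and 14.2 CPM at low glucose, and rose by 0.78 ± 0.18. When scaled to the hormone and granule genes neither passed, with edgeR adjusted p-values of 0.35 for Tarsl2 and 0.097 for Trnt1.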
